A study of Mus musculus with 4 samples.

Results

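High endothelial venules were looked for in popliteal lymph nodes (PLNs) of WT mice and of TNF-Tg mice with Early or Advanced arthritis, as the Visium spots whose RNA held the most UMIs of Glycam1, Chst4, Fut7, Ackr1, Sele and Selp. A Visium spot is a barcoded position on a capture area that takes up RNA from the several cells above it, and a UMI (unique molecular identifier) counts 1 captured molecule. Among spots with at least 1000 UMIs, the summed UMIs of these 6 genes were divided by all UMIs of the spot, and the top 10% of spots on each area with at least 2 UMIs on the list were taken. This gave 196 of 2057 such spots, of 6119 spots in the series. There were 19 of 273 on the WT area, where 8 of the 27 top spots had fewer than 2 listed UMIs and were dropped, 60 of 601 on the Early area, 57 of 579 on Advanced area 1 and 60 of 604 on Advanced area 2. Because Glycam1 supplied 96.8% of the members' score UMIs and other genes of these venules were less plain in the data, as described further on, the members are called Glycam1-high spots.

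All mice were male and of the C57BL/6 strain. The TNF-Tg mice carried a transgene for tumor necrosis factor (TNF) and develop inflammatory arthritis. WT mice were 5.5 months old, Early TNF-Tg mice 5.5 months and Advanced TNF-Tg mice 8.5 to 9 months, so that disease stage and age cannot be told apart between Early and Advanced. On the WT area lay 10 PLNs from 5 mice, on the Early area 6 from 3 mice, and 6 from 3 mice again on each of the Advanced areas, side by side in the block of each area. No table used here ties spots to single nodes or mice, so values were not computed per node. Evan's blue had been given in the hindpaw to find the nodes. WT and Early thus had 1 area each and Advanced had 2, the promoter of the transgene is not given in the sources used here, and spots were not treated as replicates.

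High endothelial venules are the vessels through which blood lymphocytes enter a lymph node. Their tall endothelial cells carry peripheral node addressin (PNAd), a set of mucin-like proteins such as Glycam1 and Cd34 whose sugar chains, built by enzymes that include Fut7, Chst2 and Chst4, are bound by lymphocytes in the blood. Their mature state depends on the lymphotoxin-beta receptor and NF-kB signalling, and in peripheral nodes they lie mainly in the T cell area and around the follicles.

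The stretches upstream of 4 genes are shown here because Glycam1 chose nearly all members and because Madcam1, Ubd and Ccl20 were among the genes outside the score that were higher in them. Each is the 250 bases before the gene start on the gene's own strand, from RefSeq on GRCm38.p6, with the NF-kB consensus in capitals: Glycam1 at chr15:103565082-103565331 (minus strand), Madcam1 at chr10:79664309-79664558, Ubd at chr17:37193642-37193891 and Ccl20 at chr1:83116516-83116765 (plus strand).
Glycam1: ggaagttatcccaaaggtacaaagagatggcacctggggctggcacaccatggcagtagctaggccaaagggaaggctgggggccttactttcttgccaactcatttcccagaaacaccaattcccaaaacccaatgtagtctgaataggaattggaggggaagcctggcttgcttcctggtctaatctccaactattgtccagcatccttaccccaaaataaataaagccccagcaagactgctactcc
Madcam1: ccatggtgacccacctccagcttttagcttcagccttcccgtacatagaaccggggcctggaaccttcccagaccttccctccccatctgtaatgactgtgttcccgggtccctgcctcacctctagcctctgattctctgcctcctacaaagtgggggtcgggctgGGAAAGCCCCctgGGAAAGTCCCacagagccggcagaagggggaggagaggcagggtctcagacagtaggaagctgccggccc
Ubd: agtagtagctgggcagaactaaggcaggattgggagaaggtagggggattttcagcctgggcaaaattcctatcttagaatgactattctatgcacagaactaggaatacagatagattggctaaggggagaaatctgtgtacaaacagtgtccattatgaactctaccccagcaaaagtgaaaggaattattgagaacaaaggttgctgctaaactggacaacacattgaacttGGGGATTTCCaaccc
Ccl20: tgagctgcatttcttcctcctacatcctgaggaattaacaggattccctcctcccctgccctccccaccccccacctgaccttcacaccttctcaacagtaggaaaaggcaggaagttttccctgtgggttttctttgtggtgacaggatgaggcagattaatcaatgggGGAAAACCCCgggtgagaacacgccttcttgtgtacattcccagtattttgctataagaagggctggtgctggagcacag
The search took the NF-kB consensus on both strands. Madcam1 held it 2 times, starting 83 and 70 bases before the gene start, Ubd 1 time at 15 bases, Ccl20 1 time at 80 bases and Glycam1 not at all in these letters. Among stretches of the same length, 8.23% of all 27025 held it (2225), as did 10.8% of the 8268 matched genes tested in the main comparison (896). It was in 8 of the 31 matched genes that were higher in the Glycam1-high spots (25.8%), in 9 of the 52 matched genes that were lower (17.3%) and in 0 of the 6 score genes. These are matches of letters and no sites of binding were measured.

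Glycam1 (ENSMUSG00000022491, chromosome 15, 103562759 to 103565081 on GRCm38) is a secreted mucin of the PNAd set. Its level over the members of an area was 9.60 UMIs per 10000 UMIs in WT, 25.4 in Early, 46.0 in Advanced 1 and 20.8 in Advanced 2. In the other spots it was 2.18, 6.25, 5.20 and 2.44, and since Glycam1 chose the members this gap is a description and has no test. It was present in 194 of the 196 members and also in 1117 of the 1861 other spots, so that a single Glycam1 UMI did not mark a member.

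The score of the lowest member was 7.42 per 10000 on the WT area, 16.6 on Early, 14.2 on Advanced 1 and 11.1 on Advanced 2. The highest spot outside with at least 2 listed UMIs had 7.22, 16.5, 14.2 and 10.7, so members and others formed 1 continuous range. The median member held 5 listed UMIs in WT, 21.5 in Early, 9 in Advanced 1 and 7.5 in Advanced 2. On Advanced 1 the 3 top spots held 61.7% of the members' score UMIs, and on the other areas 26.3% to 32.3%.

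**Figure D1:**
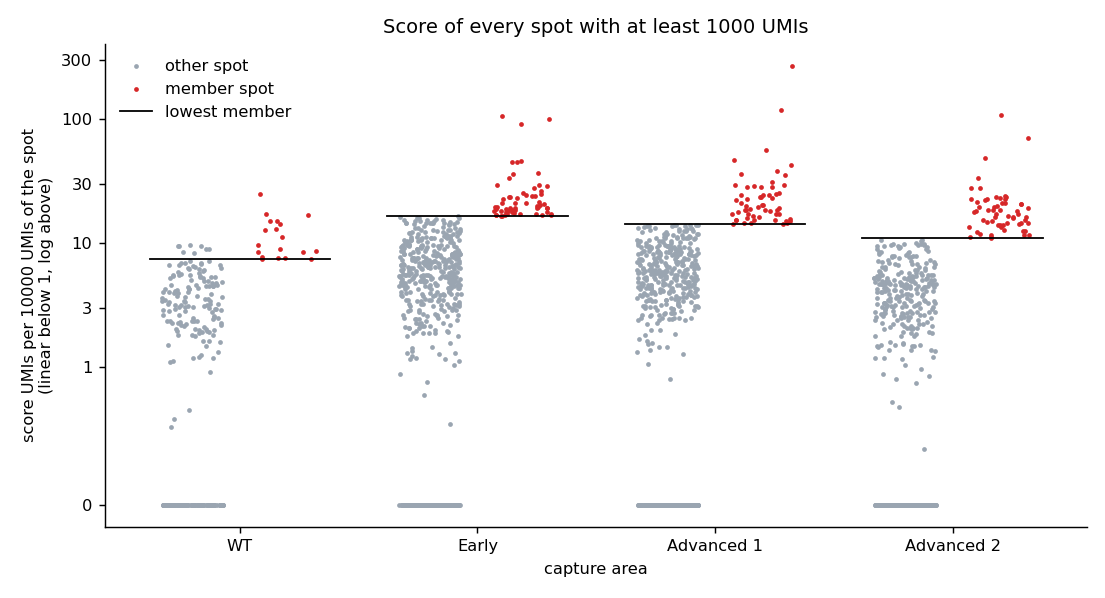
Score of each spot with at least 1000 UMIs, as summed UMIs of the 6 score genes per 10000 UMIs, on the 4 areas (linear below 1, log above), members in colour and a line at the lowest member. The lowest members stood at 7.42 (WT), 16.6 (Early), 14.2 (Advanced 1) and 11.1 (Advanced 2), and 1 spot of Advanced 1 reached 270.2.

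The other score genes were scarce. Fut7, the fucosyltransferase of the ligand (chromosome 2, 25423267 to 25426374), had 65 UMIs in 33 members, of which 45 were on Advanced 1, 12 on Advanced 2, 5 on WT and 3 on Early. Chst4, the sulfotransferase found mainly in these venules (chromosome 8, 110029153 to 110039740), had 22 UMIs in 10 members, 19 of them on Advanced 1 and none on WT. Ackr1, the chemokine-binding receptor of venules, had 48 UMIs in 27 members, and Selp, P-selectin, 15 in 14. Sele, E-selectin, was listed at 0 in every spot of every area, which for the members allows up to 0.341 UMIs per 10000 on WT and 0.0517, 0.0901 and 0.103 on Early, Advanced 1 and Advanced 2 (upper 95% Poisson limits, counting error only).

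To ask whether the score genes marked the same spots, each gene was left out of the score in turn, the members were chosen again by the remaining 5, and the left-out gene was tested over the area sums. Without Glycam1 only 73 spots qualified, 12 on WT, 23 on Early, 23 on Advanced 1 and 15 on Advanced 2. Glycam1 in them was 2.95 per 10000 against 2.62 in the other spots on WT, 8.84 against 9.00 on Early, 65.0 against 6.95 on Advanced 1 and 15.2 against 4.23 on Advanced 2. It was thus higher on 3 of 4 areas, with a log2 difference of 1.46 (SE 0.20, adjusted p = 4.80e-07, quasi-likelihood test of edgeR, adjusted after Benjamini and Hochberg), and the gap on WT and Early was small or absent. On Advanced 1, 1 spot held 812 of the 1278 Glycam1 UMIs in the spots chosen without Glycam1. Without Advanced 2 the adjusted p was 0.249 (log2 difference 1.27), and without Advanced 1 the difference fell to 0.76 and still passed.

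Fut7, when left out, was 0.189 per 10000 in the members chosen by the other genes against 0.177 in other spots on WT, 0.0420 against 0.0886 on Early, 0.929 against 0.157 on Advanced 1 and 0.279 against 0.0871 on Advanced 2. The log2 difference was 1.42 (SE 0.36, adjusted p = 0.0236, edgeR). It was 0.47 without Advanced 1 (adjusted p = 0.881, edgeR), so the call rested on that area, and without Advanced 2 the adjusted p was 0.151. Ackr1 was higher on 4 of 4 areas but did not pass (log2 difference 1.00, SE 0.35, adjusted p = 0.197, edgeR), Selp had a log2 difference of -0.44 (adjusted p = 0.909, edgeR), and Chst4 was below the filter on low counts. The label of high endothelial venules was therefore met in part: Glycam1 and Fut7 were each raised in spots chosen by the other genes on the Advanced areas, while on the WT and Early areas no such gap was detectable at this depth. Much of the Glycam1 gap on Advanced 1 lay in 1 spot, which also held 13 of the 40 Fut7 UMIs in the spots chosen there without Fut7.

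**Figure D2:**
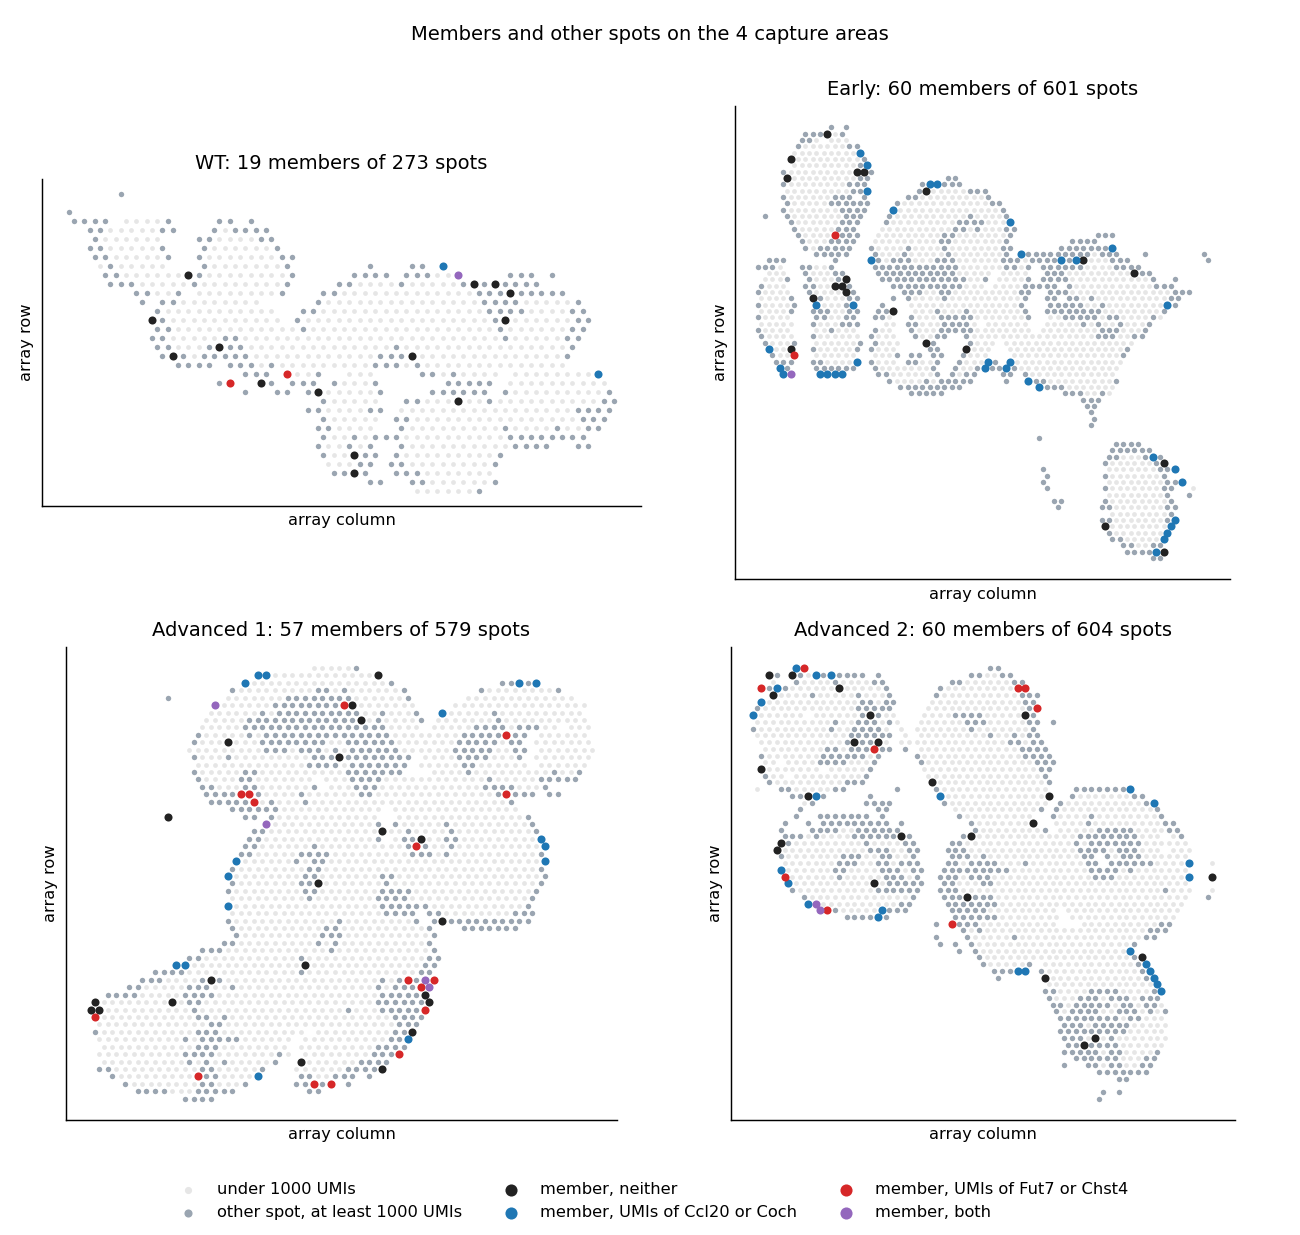
Position of the Glycam1-high spots on the 4 areas (array column and row), with other spots of at least 1000 UMIs in grey, shallower spots in light grey and members coloured by whether they held Fut7 or Chst4 (red), Ccl20 or Coch (blue), both (purple) or neither (black). Of the 196 members 37 held Fut7 or Chst4, 88 held Ccl20 or Coch and 8 held both, and 48 of 60 on Early and 47 of 60 on Advanced 2 were at a tissue edge.

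The members were deeper and nearer to the rim than the spots they are compared with, on most areas. Their median depth was 5177 UMIs against 3488.5 on WT, 8351.5 against 5346 on Early, 3869 against 3112 on Advanced 1 and 4007 against 2964.5 on Advanced 2. Spots that lacked tissue on at least 1 of 6 sides made up 68.4% of the members and 69.3% of the others on WT, 80.0% and 61.2% on Early, 61.4% and 30.1% on Advanced 1 and 78.3% and 43.4% on Advanced 2. The floor of 1000 UMIs had left out 560 of 833 spots on WT, 888 of 1489 on Early, 1436 of 2015 on Advanced 1 and 1178 of 1782 on Advanced 2. These shallower spots are drawn on the map of the areas, and how many lay inside the nodes was not counted. Any 2 areas shared 464 to 1050 spot barcodes, which mark the same positions of the array. No member touched another on WT, while 33 did on Early, 26 on Advanced 1 and 30 on Advanced 2.

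The comparison with the other spots asked which genes outside the score went with it. UMIs were summed over the members and over the 1861 other spots of each area, and edgeR's quasi-likelihood test was run with the area as a block, so a level is the UMIs of a gene per 10000 UMIs of the summed spots, and n is 4 areas. A lower level can mean fewer cells of a type in the spots or less RNA per cell, which cannot be told apart. Of 10339 genes tested, 113 passed an adjusted p of 0.05, 1.09% of all, with 40 higher (0.387%) and 73 lower (0.706%), and the median log2 difference of all genes was 0.0024. Of the 40 higher genes 27 were higher on 4 of 4 areas, and of the 73 lower genes 65 were lower on 4 of 4.

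Among the genes higher on 4 of 4 areas with at least 50 UMIs, the 15 highest were led by Serpina1e, Ccl20, Coch, Stra6 and Abt1, and they held 2 genes of the addressin system, Madcam1 and, lower among the 15, Chst2. The number of calls depended on the areas: 45 without the Early area, 45 without Advanced 2 and 187 without Advanced 1. It was 40 when only tissue-edge spots were compared and 13 when only spots with tissue on all 6 sides were, against 86 when members were chosen within 5 classes of depth.

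Of the proteins that can carry the PNAd sugars, 1 of 5 tested was higher and none was lower (median log2 difference 0.27). This was Madcam1, the mucosal addressin that binds the integrin alpha4-beta7 and can also carry PNAd sugars (ENSMUSG00000020310, chromosome 10, 79664559 to 79668537). Madcam1 was 0.277 per 10000 in members and 0.146 in other spots on WT, 1.88 and 0.746 on Early, 0.757 and 0.594 on Advanced 1, and 1.48 and 0.340 on Advanced 2. The members were higher on each area, least so on Advanced 1, with a log2 difference of 1.31 (SE 0.18, adjusted p = 2.43e-07, edgeR). Its mean was 1.1 ± 0.718 in members and 0.457 ± 0.267 in the others (SD over 4 areas, which includes the difference between groups of mice).

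Emcn, endomucin, was also above the others on 4 of 4 areas but did not pass (log2 difference 0.81, adjusted p = 0.305, edgeR). For Cd34 the difference was 0.15, for Cd300lg, also called nepmucin, 0.27, and for Podxl, podocalyxin, -0.16, and none of the 3 passed.

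Of the enzymes that build the PNAd sugars, 1 of 10 tested was higher and none was lower (median 0.01). Chst2, a sulfotransferase that acts beside Chst4 (chromosome 9, 95399292 to 95406722), was 0.277 in members and 0.165 in other spots on WT, 0.925 and 0.446 on Early, 0.391 and 0.385 on Advanced 1, and 0.838 and 0.277 on Advanced 2, all per 10000. On Advanced 1, where Fut7 and Chst4 were most frequent, the Chst2 levels were almost equal. The log2 difference over the areas was 0.97 (SE 0.22, adjusted p = 0.00529, edgeR). The other enzymes had no call, with Fut4 at 0.90, Gcnt1 at 0.35 and B4galt1 at 0.07 on the log2 scale.

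Other genes known from these venules, such as Enpp2, the autotaxin that makes lysophosphatidic acid, and Lrg1, showed no call in 8 tested (median -0.20). Enpp2 had a log2 difference of 0.19 and Lrg1 of 0.25 (adjusted p = 0.633, edgeR).

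Genes of blood endothelium in general were not raised. Of 16 pan-endothelial genes none was higher and 2 were lower (median -0.14), and the summed level of that list was 11 to 20.8 per 10000 in the members and 14.7 to 19.4 in the others. Cdh5, VE-cadherin, had a log2 difference of -0.06 and Pecam1 of 0.11. Kdr, the VEGF receptor, was 0.185 in members and 1.12 in other spots on WT, 0.462 and 1.03 on Early, 0.684 and 0.990 on Advanced 1, and 0.727 and 1.17 on Advanced 2. Kdr was lower on every area (log2 difference -0.89, adjusted p = 0.00112, edgeR), as was Cldn5, claudin-5 of the tight junctions (-0.63, adjusted p = 0.00313, edgeR). Among spots with tissue on all 6 sides the Kdr difference was 0.15.

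Among 8 venous genes 1 was higher, 1 was lower and the median was -0.11. Vwf, the clotting factor stored by venous endothelium (chromosome 6, 125546774 to 125686679), was 0.462 per 10000 in members and 0.393 in other spots on WT, 0.126 and 0.138 on Early, 1.42 and 0.267 on Advanced 1, and 0.727 and 0.673 on Advanced 2. Only the gap on Advanced 1 was wide, and the log2 difference was 0.98 (SE 0.25, adjusted p = 0.0281, edgeR). Nr2f2, the transcription factor of vein identity, was lower (-0.66, adjusted p = 0.0131, edgeR). None of 5 arterial or capillary genes, 10 basement membrane genes, 8 pericyte and smooth muscle genes or 8 junction genes passed, with medians of -0.14, -0.22, -0.07 and 0.06.

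Genes of entry and retention did not separate the spots. None of 12 homing genes passed (median 0.08), among them Ccr7, the receptor that guides T cells, at -0.18. Ccl21a, the Ccr7 ligand that lines these venules, was 18.6 in members and 11.7 in other spots on WT, 3.54 and 4.06 on Early, 18.1 and 8.0 on Advanced 1, and 9.64 and 9.49 on Advanced 2, all per 10000. It was higher on 3 of 4 areas, with a clear gap on WT and Advanced 1, and did not pass (log2 difference 0.45, adjusted p = 0.107, edgeR). Reads of Ccl21a can be shared with near-identical copies of the gene. None of 11 genes of the lymphotoxin-beta receptor and NF-kB list passed (median 0.11), with Ltb at 0.26 and Relb at 0.14.

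**Figure D3:**
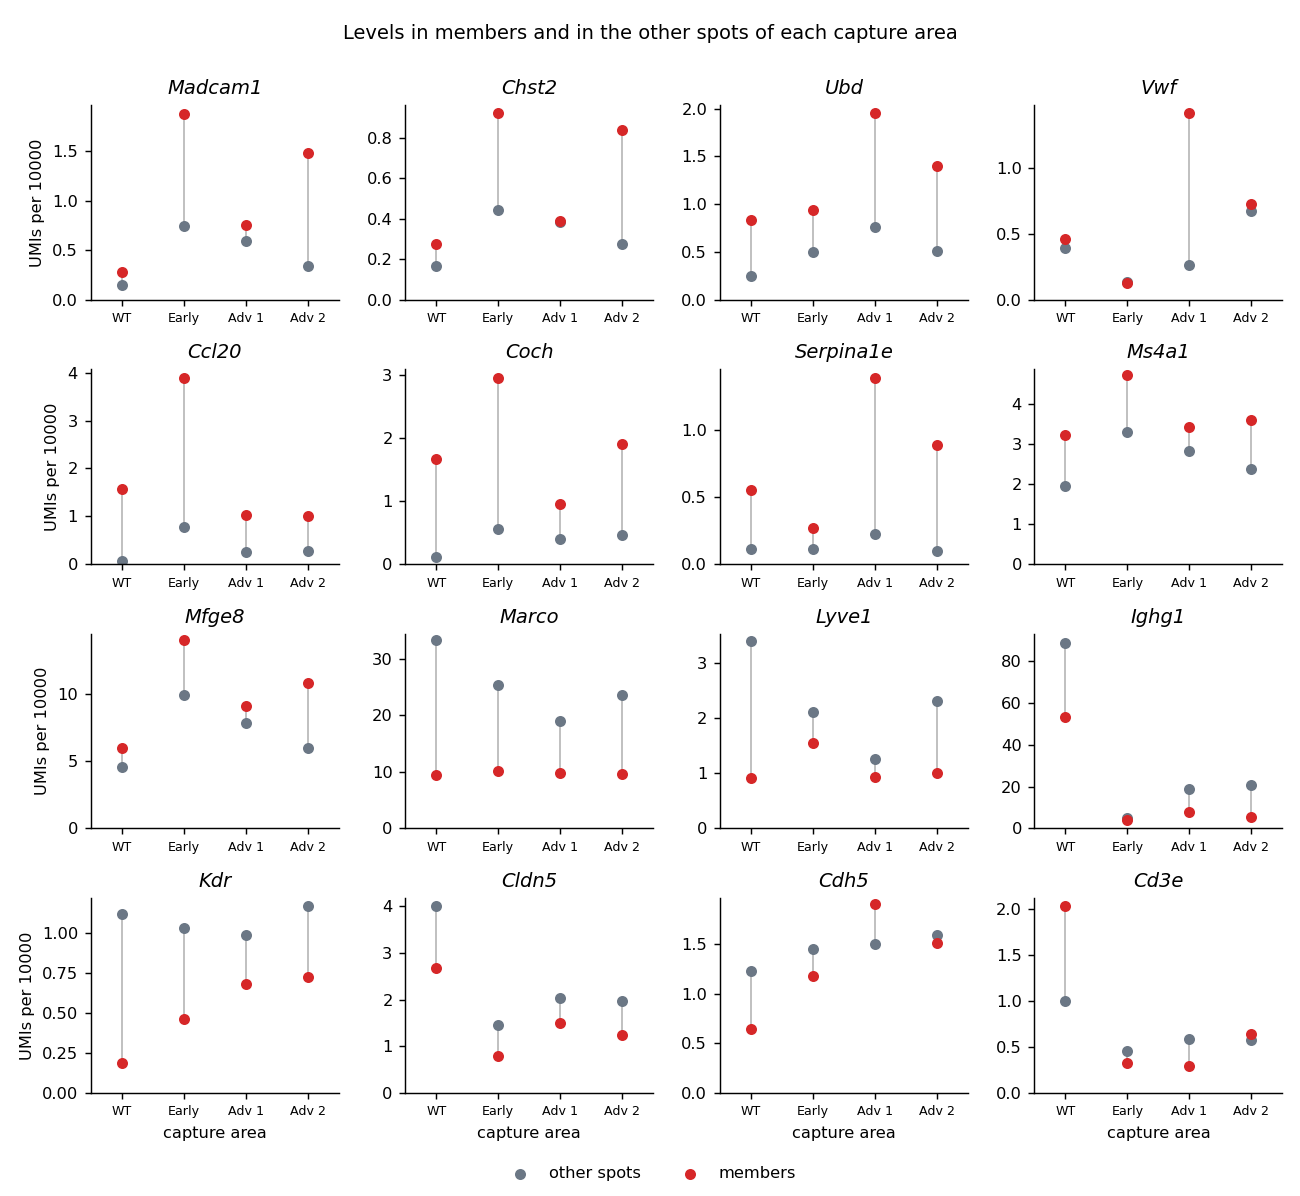
Level of 16 genes in the Glycam1-high spots (red) and other spots (grey) of each area, in UMIs per 10000 UMIs. Madcam1, Ubd, Ccl20 and Coch were higher in the members on each of the 4 areas and Marco lower on each, while Vwf and Cd3e changed sides between areas.

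The largest gaps outside the score belonged to genes that do not make PNAd. Ccl20, the chemokine ligand of Ccr6 (ENSMUSG00000026166, chromosome 1, 83116766 to 83119167), was 1.57 per 10000 in members and 0.0570 in other spots on WT, 3.88 and 0.779 on Early, 1.03 and 0.255 on Advanced 1, and 1.01 and 0.273 on Advanced 2. The members were above the others on every area, with a mean of 1.87 ± 1.37 against 0.341 ± 0.308 (SD, n = 4) and a log2 difference of 2.36 (SE 0.18, adjusted p = 6.27e-17, edgeR).

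Coch, the secreted protein cochlin that follicular dendritic cells make in lymph nodes (ENSMUSG00000020953, chromosome 12, 51593341 to 51605771), was 1.66 per 10000 in members and 0.114 in other spots on WT, 2.94 and 0.562 on Early, 0.952 and 0.396 on Advanced 1, and 1.90 and 0.463 on Advanced 2. It too was higher on every area (log2 difference 2.19, SE 0.17, adjusted p = 1.65e-16, edgeR). Beside the follicle, Ccl20, Coch and Madcam1 are also known from the lymphatic endothelium on the floor of the subcapsular sinus. Of 8 lymphatic endothelial genes tested none was higher and 3 were lower (median -0.54), namely Lyve1 (-0.78), Stab1 (-0.67) and Stab2 (-0.87). Prox1, the factor that defines this lineage, had a log2 difference of -0.21 and did not pass. This list was not made for the floor of the sinus, and the source of Ccl20, Coch and Madcam1 was not tested.

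Serpina1e, a member of the alpha-1-antitrypsin family (ENSMUSG00000072849, chromosome 12, 103946931 to 103958975), was 0.554 per 10000 in members and 0.114 in other spots on WT, 0.266 and 0.110 on Early, 1.39 and 0.225 on Advanced 1, and 0.894 and 0.0990 on Advanced 2. The log2 difference of 2.40 (SE 0.26, adjusted p = 2.63e-10, edgeR) was the highest of the 15, and the gene passed in 13 of the 13 alternatives that gave it a value. Its copy Serpina1b rose as well (1.27, adjusted p = 0.000307, edgeR), though the near-identical sequences of this family make the split between copies uncertain.

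Ubd, the ubiquitin-like protein FAT10 that TNF and interferon-gamma induce (ENSMUSG00000035186, chromosome 17, 37193892 to 37196095), was 0.831 in members and 0.253 in other spots on WT, 0.939 and 0.504 on Early, 1.95 and 0.758 on Advanced 1, and 1.40 and 0.511 on Advanced 2, all per 10000. It was higher on each area (log2 difference 1.29, SE 0.16, adjusted p = 1.23e-08, edgeR), WT included.

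Among the remaining genes of the highest 15 were Stra6, a receptor for the retinol carrier (1.97), Abt1 (1.38), Clec4e, the macrophage receptor Mincle (1.03), Fnbp1l (1.02), Cilp (1.00), Pglyrp1, which binds bacterial cell walls (0.88), F2r, a thrombin receptor (0.84), and H2-Eb2, an MHC class II chain (0.70). All were higher on 4 of 4 areas and passed by edgeR, but Abt1 passed in only 4 of 12 alternatives and H2-Eb2 in 2 of 13.

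Of 9 B cell genes 2 were higher and none was lower (median 0.37), and the summed level of the list was 37.7 to 61.6 per 10000 in members and 26.9 to 49.5 in the others. Ms4a1, which encodes CD20, was 3.23 in members and 1.96 in other spots on WT, 4.74 and 3.29 on Early, 3.42 and 2.83 on Advanced 1, and 3.61 and 2.38 on Advanced 2 (log2 difference 0.53, adjusted p = 0.00631, edgeR). It was higher on every area, whereas Cr2, the complement receptor of B cells and follicular dendritic cells, was higher on WT, Early and Advanced 2 but not on Advanced 1, where it was 1.95 per 10000 in members and 2.0 in the others (0.58, adjusted p = 0.00860, edgeR). Of 3 follicular dendritic cell genes 2 were higher, Mfge8 (0.52) and Clu (0.56), and Cxcl13 at 0.38 did not pass (adjusted p = 0.306, edgeR). Ms4a1 and Cr2 each passed in 5 of 15 alternatives, and with Glycam1 left out of the score they were at -0.46 and -0.54. The T cell list, which marks the zone where these venules usually lie, had no call among 11 genes (median -0.09), and Cd3e was 2.03 in members and 1.00 in other spots on WT, 0.322 and 0.457 on Early, 0.293 and 0.583 on Advanced 1, and 0.643 and 0.574 on Advanced 2.

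Genes of sinus macrophages, red cells, mast cells and plasma cells were among the 73 lower in the members. Of 9 sinus macrophage genes 6 were lower and none was higher (median -0.86). Marco, a scavenger receptor of these cells, was 9.42 per 10000 in members and 33.2 in other spots on WT, 10.1 and 25.4 on Early, 9.72 and 18.9 on Advanced 1, and 9.59 and 23.6 on Advanced 2. The members were nearly equal across the areas, and the log2 difference was -1.31 (SE 0.14, adjusted p = 5.39e-11, edgeR). C1qa, C1qb and C1qc, the chains of complement C1q, had log2 differences of -0.70, -1.03 and -1.04, and Mrc1, the mannose receptor, of -0.84. With Glycam1 left out of the score the list median was 0.33, and C1qb was called higher (0.60, adjusted p = 0.00316, edgeR), as was Cd209f, another macrophage gene (1.23, adjusted p = 0.0339, edgeR).

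All 4 red cell genes tested were lower (median -1.1), as were 3 of 4 mast cell genes (Mcpt4 at -1.26, Cma1 at -1.15 and Tpsb2 at -1.1), 3 of 7 plasma cell genes and 1 of 8 fat genes, Lpl (-0.64). The mast cell proteases and the hemoglobin genes each belong to families of close copies. Ighg1, the constant gene of IgG1, was 53.0 in members and 88.6 in other spots on WT, 3.94 and 5.08 on Early, 8.03 and 18.8 on Advanced 1, and 5.53 and 20.9 on Advanced 2, all per 10000 (log2 difference -1.03, adjusted p = 1.70e-06, edgeR). It was lower on each area. The 10 lowest genes by the rule were Bpifb3 (-2.12), Ifi204 (-2.11), Fcgr1 (-1.85), Galc (-1.66), Cd209f (-1.64), Cd5l (-1.62), Hmox1 (-1.45), Saa3 (-1.40), Hbb-bt (-1.38) and Cxcl10 (-1.33). Cd5l and Hmox1 are macrophage genes of lipid and heme handling, Fcgr1 encodes an IgG receptor and Cxcl10 is an interferon-induced chemokine. The first 4 of these genes rested on few UMIs in the members, and so did Cd209f, with 8 on WT, 3 on Early, 1 on Advanced 1 and 1 on Advanced 2.

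**Figure D4:**
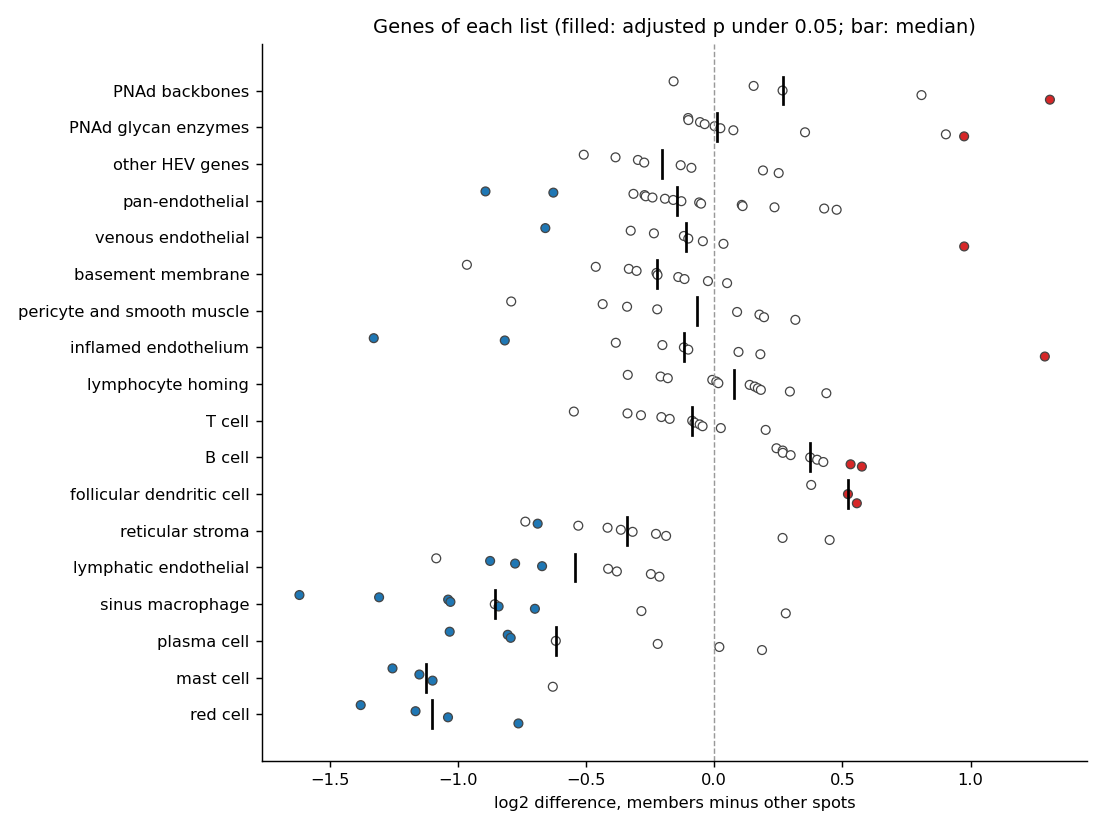
Log2 difference between Glycam1-high and other spots for each gene of 18 lists, filled where the adjusted p was below 0.05 and with a bar at the median of the list. The medians ran from -1.12 for mast cell and -1.1 for red cell genes to 0.52 for follicular dendritic cell genes, against 0.0024 over all genes tested.

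Because Glycam1 decided the choice, the same comparison was made for the 73 spots chosen by Chst4, Fut7, Ackr1, Sele and Selp alone. Of 9649 genes it called 68 (0.705%), 51 higher (0.529%) and 17 lower (0.176%). Only 3 of them, Serpina1e, Sult1a1 and Vwf, were also among the 113 with the same direction. The fit with Glycam1 among the genes tested (9650 genes, also 68 calls) gave 30 calls without Early and 9 without Advanced 2, and DESeq2 gave 26. Vwf had a log2 difference of 3.10 (adjusted p = 6.02e-16, edgeR), with 0.316 per 10000 in these spots and 0.407 in the others on WT, 0.824 and 0.0896 on Early, 2.29 and 0.292 on Advanced 1, and 7.56 and 0.359 on Advanced 2. The gap was widest on Advanced 2, as it was for Acta2 of smooth muscle (6.08 and 0.951 there). By list, the genes higher were 2 of 16 pan-endothelial genes (Esam at 1.1 and Eng at 0.65, median 0.44), 3 of 8 venous genes (Vwf, Plvap and Bgn, median 0.45), 2 of 8 pericyte and smooth muscle genes (Tagln at 1.61 and Acta2 at 1.22, median 0.35), 1 of 5 PNAd backbones (Cd300lg at 0.68), 1 of 8 other high endothelial venule genes (Lrg1 at 1.03) and none of 9 PNAd enzymes. Genes of other cells were higher as well: 3 of 10 reticular genes (Lum, Col1a1 and Col3a1, median 0.44), 2 of 6 neutrophil genes (S100a8 at 0.79 and S100a9 at 0.97, median 0.74), Pf4 of platelets (1.33) and C1qb of macrophages (0.60). The part of these cells in the result was not tested. None of 9 B cell genes was higher (median -0.41). The 17 lower genes included 1 of 3 follicular dendritic cell genes (Cxcl13) and 2 of 8 fat genes (Car3 and Cfd). Il22ra2 and Lyz1, both called higher in the main comparison, were also among the 17. Ccl20, Coch and Madcam1 were not higher in these spots, at -0.24, -0.72 and -0.40.

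The members differed among themselves, as described here by genes chosen after their values had been seen. Fut7 or Chst4 was found in 37 members (18.9%) and in 131 of the other spots (7.04%), and Ccl20 or Coch in 88 members (44.9%) and in 369 others (19.8%). Both were found in 8 members, which is 21.6% of those with Fut7 or Chst4 and 9.09% of those with Ccl20 or Coch, and 79 members held neither. Among the other spots 39 held both, which is 29.8% and 10.6% of those with the same pairs, so a low overlap was not particular to the members. Fut7 or Chst4 was held by 3 members on WT, 3 on Early, 20 on Advanced 1 and 11 on Advanced 2, and Ccl20 or Coch by 3, 38, 20 and 27. Shallow spots detect fewer genes, and the members with neither had medians of 2073 UMIs on Advanced 1 and 2105 on Advanced 2.

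On the Advanced areas the kinds can be set beside each other at like depth. The 16 members of Advanced 1 with Fut7 or Chst4 alone had a median of 5685.5 UMIs and 5 of them were at the tissue edge, against 5285 UMIs and 16 of 16 at the edge for those with Ccl20 or Coch alone. On Advanced 2 there were 9 (median 6500, 7 at the edge) and 25 (median 6373, 24 at the edge).

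Glycam1 was 35.0 per 10000 in the Fut7 or Chst4 spots and 20.1 in the Ccl20 or Coch spots on Advanced 1, and 30.2 and 17.5 on Advanced 2. Vwf was 1.68 (exact Poisson 95% interval 1.06 to 2.52) and 0.377 (0.103 to 0.966) on Advanced 1, and 2.19 (1.34 to 3.38) and 0.119 (0.0144 to 0.430) on Advanced 2. Madcam1 went the other way, at 0.365 (0.119 to 0.852) and 1.98 (1.23 to 3.03) on Advanced 1 and 0.328 (0.0677 to 0.959) and 2.26 (1.60 to 3.10) on Advanced 2. The intervals cover counting error only, and how many of all genes would differ as much between the kinds was not tested. On Advanced 2, 1 of the 9 Fut7 or Chst4 spots, with 21305 of their 91442 UMIs, held 18 Vwf and 144 Glycam1 UMIs. The Vwf level of that kind on Advanced 2 thus rested mainly on 1 spot, and much of its Glycam1 level did too. On Advanced 1, 1 of the 16 such spots held 254 Glycam1 and 3 Vwf UMIs.

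The pan-endothelial list summed to 23.5 (21.0 to 26.2) in the Fut7 or Chst4 spots and 13.9 (11.7 to 16.3) in the Ccl20 or Coch spots of Advanced 1, and to 23.9 (20.9 to 27.3) and 12.2 (10.6 to 14.0) on Advanced 2. The B cell list summed to 46.8 (43.3 to 50.6) and 72.0 (67.0 to 77.3) on Advanced 1 and to 32.9 (29.3 to 36.9) and 58.2 (54.6 to 61.9) on Advanced 2. The endothelial sum was higher in the first kind and the B cell sum in the second, on both areas, as a description. Ccl21a was 19.1 and 7.17 on Advanced 1 and 13.6 and 4.52 on Advanced 2, and Ubd 1.83 and 1.60, and 1.75 and 0.714.

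**Figure D5:**
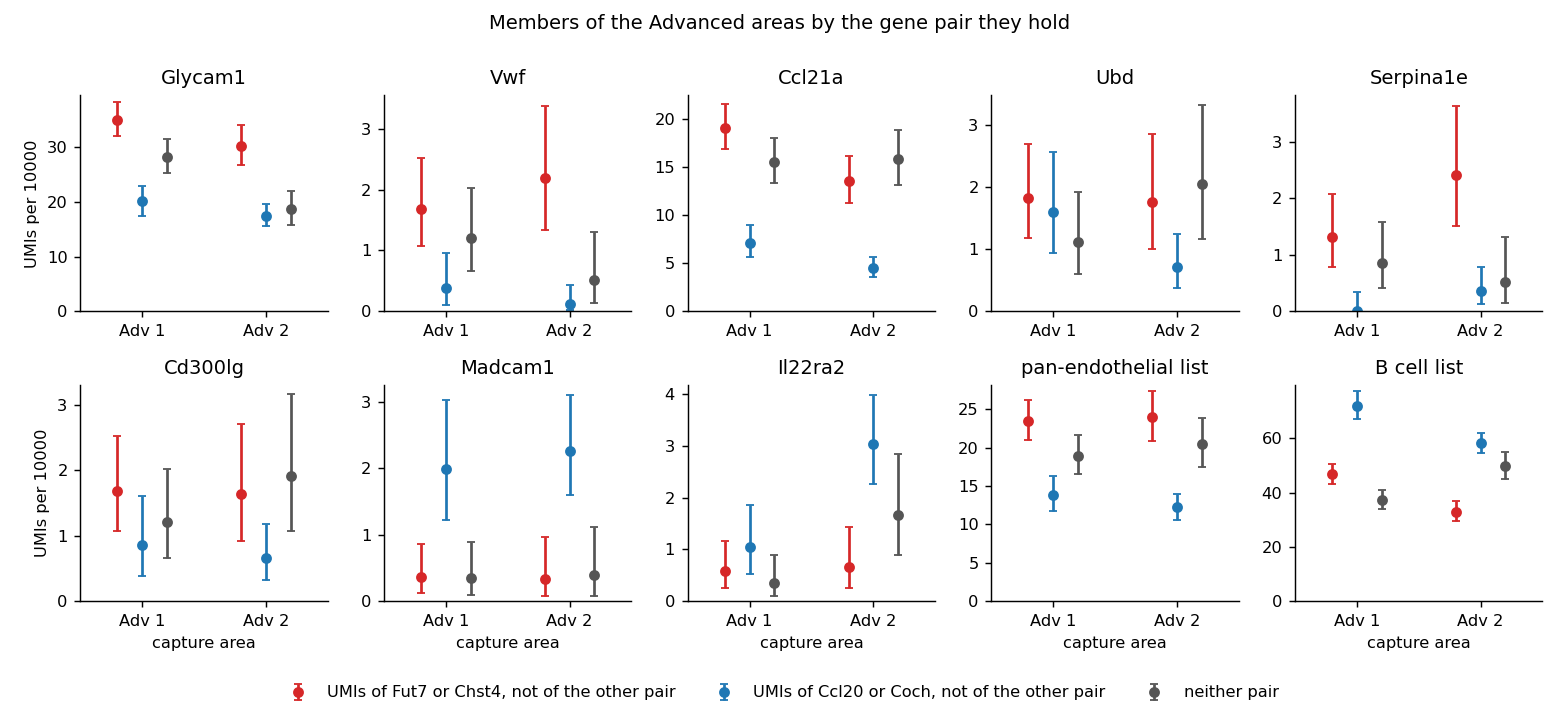
Level of 10 genes or lists in members of Advanced 1 and Advanced 2 that held Fut7 or Chst4 only, Ccl20 or Coch only, or neither, in UMIs per 10000 UMIs with exact 95% Poisson intervals. Vwf and the pan-endothelial list were higher with Fut7 or Chst4 (23.5 against 13.9 for the list on Advanced 1) and Madcam1 and the B cell list with Ccl20 or Coch (72.0 against 46.8 for the list). On Advanced 2, 18 of the Vwf UMIs with Fut7 or Chst4 lay in 1 spot.

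The top spots of the areas differed in the same genes. On Advanced 1 the top spot held 843 score UMIs of 31203, with 812 of Glycam1, 13 of Fut7, 12 of Chst4 and 5 of Ackr1, and beside them 192 UMIs of Ccl21a, 28 of Serpina1e, 22 of Ubd, 16 of Vwf, 14 of Cd300lg, 1 of Ccl20 and 1 of Madcam1. The top spot of Early held 260 score UMIs of 56324, of which 259 were Glycam1, 1 was Fut7 and none was Chst4, with 54 UMIs of Ccl20, 28 of Coch, 15 of Madcam1 and 10 of Ccl21a and no Vwf. On Advanced 2 the top spot (151 of 21305) held 18 Vwf UMIs and no Ccl20 or Coch, and on WT (14 of 10921) it held 13 Coch and 3 Ccl20 UMIs.

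The level of Glycam1 by distance is a description, since the step from members to their neighbours is set by a choice that rested on Glycam1. On Early it was 25.4 per 10000 in the members, 8.52 in other spots that touched a member, 6.37 and 5.72 at distances of 2 and 3 spots, and 4.92 beyond. On Advanced 1 the values were 46.0, 6.33, 4.86, 5.54 and 4.72, on Advanced 2 20.8, 3.27, 2.40, 2.96 and 2.00, and on WT 9.60, 2.17, 2.34, 2.52 and 2.08. From the touching spots outward, where both sides were outside the choice, the values on Early fell at each distance and those on WT lay between 2.08 and 2.52 with no fall.

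A comparison of the 330 other spots that touched a member with the 1531 more distant ones asked what surrounded the members. Glycam1 was 2.17 beside members and 2.18 away on WT, 8.52 and 5.48 on Early, 6.33 and 4.94 on Advanced 1, and 3.27 and 2.26 on Advanced 2, and the log2 difference of 0.40 (SE 0.12, adjusted p = 1.00, edgeR) did not pass. Of 10527 genes 1 was called (0.0095%), and 419 had an unadjusted p below 0.05. This was Ighg1, at 65.6 and 92.6 on WT, 4.40 and 5.32 on Early, 11.9 and 20.4 on Advanced 1, and 10.7 and 23.2 on Advanced 2 (log2 difference -0.69, SE 0.11, adjusted p = 0.0422, edgeR). The count was 0 without Early (375 at an unadjusted p below 0.05, edgeR) and 9 without Advanced 1. Ranked by size with no call, Cd200r1 (1.23) and Zfp532 (1.02) were highest beside members, followed by Samd10, Slc7a10 and Fggy, and Pdgfc (-1.53) was lowest, followed by Zfp747, Gstt3, Ccdc148 and Sft2d3.

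Against vessel spots, the top 10% of spots by Cdh5, Cldn5, Flt1, Kdr, Egfl7, Esam and Ecscr, the members had more follicle genes and fewer lymphatic and macrophage genes. Only 0, 1, 6 and 1 members (WT, Early, Advanced 1, Advanced 2) were themselves in that top 10% and they were kept as members. Of 5834 genes 320 were called (5.49%), 134 higher (2.3%) and 186 lower (3.19%). Coch (4.64, SE 0.38, adjusted p = 2.00e-09, edgeR), Ccl20 (3.23), Serpina1e (2.53), H2-Eb2 (1.77) and Cr2 (1.71) were the 5 highest, and Cd5l (-2.57), Galc (-2.21), Galnt15 (-2.13), Hmox1 (-2.10) and Marco (-2.08) the 5 lowest. Marco was 9.70 ± 0.279 per 10000 in members and 45.0 ± 15.1 in vessel spots (SD, n = 4). In vessel spots it was 47.3 on WT, 63.2 on Early, 26.4 on Advanced 1 and 43.1 on Advanced 2. On each area this was above the level given before for the other spots, so the vessel spots were themselves rich in sinus genes.

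Of 3 PNAd backbones tested 1, Madcam1, was higher than in vessel spots (median 0.43), and of 6 PNAd enzymes none was higher and 1 was lower, St3gal4. Of 9 B cell genes 8 were higher (median 0.91), all 7 lymphatic endothelial genes were lower (median -1.46), as were 7 of 9 sinus macrophage genes (median -1.59), and none of 9 T cell genes passed. A choice of vessel spots by endothelial genes favours lymphatic endothelial genes in them, so the direction of that list is not independent of the choice. The directions of the sinus macrophage and B cell lists may depend on the choice as well, which was not tested. The vessel genes that chose the comparison spots were not tested, and 2 of the 8 remaining pan-endothelial genes were lower in the members. The count of calls was 70 without Early, 484 without Advanced 1 and 162 without Advanced 2.

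Against T cell zone spots, the top 10% by Cd3e, Cd3d, Cd3g, Cd4, Cd8a, Lck and Trbc2, Ccl20, Coch and follicle genes were again higher, from the same sums over the members. Of the members 5, 3, 6 and 5 (WT, Early, Advanced 1, Advanced 2) were in that top 10%, and the median depth of the zone spots was only 1841 to 3347 UMIs. Of 3510 genes 223 were called (6.35%), 126 higher (3.59%) and 97 lower (2.76%). Ccl20 (4.79, adjusted p = 4.09e-11, edgeR), Coch (3.42), Il22ra2, the soluble receptor that binds interleukin-22 (3.07), Cfd (2.68) and Lyz1 (2.02) were the 5 highest. The lowest were the T cell and cytotoxic genes Ccl5 (-1.86), Sidt1 (-1.86), Cd6 (-1.79), Klrd1 (-1.67) and Tcf7 (-1.50), a direction that the choice of the zone spots favours.

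Enpp2 and Lrg1, 2 of the 6 other high endothelial venule genes tested, were higher in the members than in the T cell zone, as were 6 of 9 B cell genes and 3 of 3 follicular dendritic cell genes. For the B cell and follicular dendritic cell genes, too, the choice of the zone spots by T cell genes favours this direction. Ccl19 and Cxcl12, chemokines of reticular cells, were lower, 2 of 7 genes of that list. Leaving out the Early area left 76 calls, leaving out Advanced 2 left 112, and choosing members within depth classes left 35.

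Finally, the members of the 2 Advanced areas were compared with those of the Early area, 1 sample, with 1 residual degree of freedom. The score genes were not tested, and Glycam1 in members was 25.4 per 10000 on Early and 46.0 and 20.8 on Advanced 1 and 2, so the Early value lay between the Advanced values. Of 8376 genes 43 were called (0.513%), 30 higher in Advanced (0.358%) and 13 lower (0.155%), and the median log2 difference of all genes was 0.0209. DESeq2 called 1 gene in the same sums.

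Higher in Advanced were Ighg2b, the constant gene of IgG2b (log2 difference 3.17, SE 0.64, adjusted p = 0.000447, edgeR), Vwf (3.00, adjusted p = 1.98e-06, edgeR), Camp, the neutrophil cathelicidin (2.92), Igha (2.70) and Inmt (2.38). Vwf in members was 0.126 per 10000 on Early, 1.42 on Advanced 1 and 0.727 on Advanced 2. A single spot held 18 of the 26 Vwf UMIs in members of Advanced 2, and on Advanced 1 the top spot held 16 of 58. Ccl21a (1.90), Cxcl12 (1.68) and Serpina1e (2.03) were also higher. Of the vessel genes Egfl7 (1.20) was higher, as were Cd300lg (1.31), Spns2, the transporter of sphingosine 1-phosphate (1.38), and Robo4 (2.01). Under most alternatives Cd300lg, Spns2 and Robo4 lost their calls. In the lists the main fit called higher 2 of 16 pan-endothelial genes (median 0.79), 1 of 4 PNAd backbones (median 0.91) and 3 of 9 reticular genes.

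Lower in Advanced were Hamp, the iron hormone hepcidin (-3.07, adjusted p = 5.49e-12, edgeR), Ccl20 (-2.0), Fn1, fibronectin (-1.78), Ccl12 (-1.78) and the follicle chemokine Cxcl13 (-1.64). Hamp was 1.89 per 10000 in the members on Early and 0.342 and 0.112 on Advanced 1 and 2. Coch was lower too (-1.12, adjusted p = 0.0176, edgeR), and Cxcl13 in members was 30.9 on Early, 8.50 on Advanced 1 and 12.3 on Advanced 2. No homing, lymphotoxin-beta receptor and NF-kB or T cell gene passed.

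Whether these differences belonged to the members was tested as the interaction of stage and spot class. Of 10339 genes 1 passed (0.00967%), with 357 at an unadjusted p below 0.05, and DESeq2 called none (5 at an unadjusted p below 0.05). It was Igha, the constant gene of IgA (chromosome 12, 113254830 to 113260236), which was 0.504 in members and 2.11 in other spots on Early, 4.91 and 5.53 on Advanced 1, and 1.98 and 2.32 on Advanced 2, all per 10000. The members were below the others on all 3 areas, and less so on the Advanced areas (log2 difference of differences 1.85, SE 0.39, adjusted p = 0.0226, edgeR). For Vwf, Ccl20, Coch and the other genes of the preceding comparison, a change particular to the members was not shown. On simulated data with the same dispersion for every gene, this fit recovered 51% of changes of 2 and 5% of changes of 1 on the log2 scale. By size the highest were Erp27, Lcmt2, Il18rap, Pamr1 and Adamtsl4 and the lowest Exog, mt-Atp8, Cdca7, Cd3eap and Mrgprb1, each with 0 UMIs in at least 1 sum, so no fold is given.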

How the data were processed

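Visium libraries of 4 capture areas (WT 1, Early 1, Advanced 2) were analysed. Space Ranger 1.1.0 was run by the authors on GRCm38, and its UMI counts for spots under tissue are the deposited values, with no normalization. Areas held 1808678 to 5180493 UMIs over 32287 features, and intervals cover counting error only. Only Advanced has replicate areas. The comparisons of spot classes have 4 areas of 3 groups and 3 residual degrees of freedom. In its test edgeR draws the spread of each gene toward that of all genes tested. A small p-value therefore need not mean that a gene differed alike on the 4 areas. The stage comparison and the interaction have 1 residual degree of freedom, between the 2 Advanced areas, and Early is assumed to vary like them. Their p-values rest largely on the spread shared over the genes. They do not measure the spread of a single gene between the 2 Advanced areas.

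UMIs were summed per area and spot class and tested with edgeR 4.0.16 (R 4.3.3, limma 3.58.1) by the quasi-likelihood test (TMM, filterByExpr, area as block, Benjamini-Hochberg over all genes tested, threshold 0.05), with score genes left out. DESeq2 1.42.0, other spot choices and areas left out were alternatives, and 1, spots thinned to 1000 UMIs, was added after seeing the data. The area block pairs both sums of 1 area, since they come from the same sections. The fits were tested on simulated data: 68% of genes changed by a log2 fold of 1 and 95% of those changed by 2 were recovered for members against other spots (10366 genes), 17.4% and 83.2% for Advanced against Early (8366 genes) and 5% and 51% for the interaction (10363 genes). The simulation gave every gene the same dispersion and changed only genes with many UMIs. For Advanced against Early it added no further difference between areas. Recovery for scarcer or more variable genes was not tested.

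The genes named are the score genes, genes of 25 lists, and the 15 highest and 10 lowest called genes with 1 direction on 4 of 4 areas and at least 50 UMIs (5 and 5 in other comparisons, by size where fewer passed, with predicted genes left out). Genes outside this rule were chosen after their values were seen. The members and the lists were chosen with earlier results of these data known. Python 3.11.15, numpy 2.4.6, pandas 2.3.3 and scipy 1.17.1 were used.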

Additional observations from a re-analysis of the deposited data

Results flagged for a closer look

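For Igha the gap between Glycam1-high and other spots differed between Advanced and Early by 1.85 on the log2 scale (edgeR's quasi-likelihood interaction test, Benjamini-Hochberg adjusted p = 0.0226), the only gene of 10339 to pass. The Early side was 1 area, and with Glycam1 left out of the score the value was -1.75.

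Spots under 1000 UMIs, which no comparison used, held score UMIs at 1.49 per 10000 on WT, 3.17 on Early, 3.94 on Advanced 1 and 2.58 on Advanced 2 (18, 57, 135 and 81 UMIs in 560, 888, 1436 and 1178 spots). A count of 0 would have allowed up to 0.248, 0.167, 0.0876 and 0.0954. In the other spots of at least 1000 UMIs the levels were 2.62, 6.54, 5.60 and 2.80.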

How the results depend on the processing

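The count of genes called between members and other spots, 113, was 68 with Glycam1 left out of the score, 40 in tissue-edge spots, 13 in spots with tissue on all 6 sides, 20 with spots thinned to 1000 UMIs (added after seeing the data), 40 by DESeq2 and 45 to 187 when 1 area was left out, and within 1.5 times of it with at least 500 (125) or 2000 UMIs (126), the top 5% (92), depth classes (86) or no filter (120). Without the area block it was 3. The area pairs both sums, so the fit without the replicate block ignores a pairing that the design gives. Higher genes were 35.4% of the calls, 75.0% without Glycam1 and 7.69% on all 6 sides.

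Against vessel spots 320 became 116 (top 5%), 46 (no Glycam1), 113 (DESeq2, 57.5% higher against 41.9%) and 70 to 484 (areas left out). Against T cell zone spots 223 became 103 (2000 UMIs), 79 (top 5%), 35 (depth classes), 115 (no Glycam1), 65 (DESeq2) and 76 to 239 (areas left out), and without a filter 244 with 184 higher and 60 lower. Beside members 1 became 2 (500 UMIs), 0 (2000, with 376 at an unadjusted p below 0.05), 2 (top 5%), 5 (depth classes), 44 (no Glycam1), 17 (no filter) and 0 to 9. Advanced against Early gave 22 (no Glycam1), 27 (no filter) and 1 (DESeq2) in place of 43, and the interaction 0 (500 UMIs, 2000 UMIs and no filter, with 294 to 403 genes at an unadjusted p below 0.05 by edgeR, and DESeq2, with 5), 12 (top 5%), 19 (depth classes) and 6 (no Glycam1) in place of 1. Left-out Glycam1 was 0.55 on all 6 sides, 1.36 by DESeq2, 2.02 without the block and 0.76 to 1.99 with an area left out. Left-out Fut7 was 1.41 at 2000 UMIs, 1.47 in depth classes, 1.51 at the edge, 1.57 without the block and 0.47 to 1.96 with an area left out, and Ackr1 passed only in the top 5% (1.59).

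With Glycam1 left out of the score these log2 differences changed sign against other spots: Ccl20 -0.24, Coch -0.72, Madcam1 -0.40, Clec4e -0.46, Cilp -0.32, H2-Eb2 -0.023, Ms4a1 -0.46, Cr2 -0.54, Mfge8 -0.060, Bpifb3 0.059, Ifi204 0.51, Fcgr1 0.71, Galc 0.33, Cd209f 1.23, Cd5l 0.30, Hmox1 0.28, Hbb-bt 0.44, Cxcl10 0.48, Kdr 0.40, Cldn5 0.53, Nr2f2 0.47, Cxcl12 0.27, Ccl2 0.01, Lyve1 0.32, Stab1 0.40, Stab2 0.26, Jchain 0.14, Ighg2b 0.29, Marco 0.19, Mrc1 0.48, C1qa 0.49, C1qb 0.60, C1qc 0.33, Itga2b 0.017, Hba-a1 0.087, Hba-a2 0.35, Hbb-bs 0.23, Mcpt4 0.062 and Cma1 0.037. Beside members it reversed Samd10 (-0.46), Pdgfc (0.53) and Ighg1 (0.20), in Advanced against Early Igha (-0.58), Spns2 (-0.21) and Jchain (-0.38), and in the interaction Pamr1 (-1.78) and Igha (-1.75). Depth classes reversed Hbb-bt (0.12) and Hba-a1 (0.020), and spots with tissue on all 6 sides Kdr (0.15) and Cma1 (0.47). Of the genes listed here as changing sign against other spots with Glycam1 left out, C1qb and Cd209f passed in the other direction. Outside this list, Il22ra2 and Lyz1, called higher in the main comparison, were called lower with Glycam1 left out. Cxcl13, which was above 0 there without passing, was called lower as well. The cause was not tested.

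A split of members by PNAd genes could not be run, since at most 2 members of an area lacked them. Leaving out an Advanced area left no residual degree of freedom in the stage comparisons, and leaving out Early left no comparison. With 1 area for WT and Early, spots shallower than 1000 UMIs unused and 65 Fut7 and 22 Chst4 UMIs in all members, depth limited the comparison of stages and the detection of these enzymes in a single spot.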

Other observations

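The WT members stood apart in fat and T cell genes, with values given as a description since WT had 1 area and these genes were noticed after their values were seen. Cfd, the adipocyte protein adipsin, was 12.6 UMIs per 10000 in WT members and 3.27 in the other WT spots, and 0.855 and 1.88 on Early, 2.39 and 4.20 on Advanced 1, and 1.29 and 4.90 on Advanced 2. Cd3e was 2.03 and 1.00 on WT, and lower in the members on Early and Advanced 1. The WT members were 19 spots on 2 of 5 pieces of tissue.

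Among called genes outside the naming rule, Il22ra2, the soluble interleukin-22 receptor, was 1.20 in members and 0.456 in other spots on WT, 2.44 and 1.18 on Early, 0.659 and 0.765 on Advanced 1, and 2.04 and 0.847 on Advanced 2 (log2 difference 0.92, chosen like the next genes after its value was seen). Lyz1, a lysozyme with a close paralog, was 7.11 and 2.91, 21.3 and 9.07, 5.06 and 7.94, and 11.8 and 7.47 on the same areas (0.65). Bmp2, a growth factor, was 0.701 and 0.203 on Early and 0.531 and 0.186 on Advanced 2, and 0.171 and 0.179 on Advanced 1 (1.28). In all 3 the members were above the others on Early and Advanced 2 and below them on Advanced 1, where Ccl20 and Coch were above them.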
